A study of Mus musculus with 6 samples.

Results

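The family of miR-15 and miR-16 was followed in the RISC of mouse brain. Its members are mmu-miR-15a-5p, mmu-miR-15b-5p, mmu-miR-16-5p, mmu-miR-195a-5p and mmu-miR-497a-5p, written below without the prefix, and they were chosen by name as 5 of the 1101 miRNA labels of the deposited table. All 5 were present. The RISC is the silencing complex in which an Argonaute (Ago) protein holds a short guide RNA. In Ago-RP-Seq a GW182 peptide captures Ago1-4, and the short RNAs bound to them (R-sRNAs) are sequenced. Both groups were BL6 mice, in the study's methods male C57BL/6J, with no transgene or treatment named, 2 months old (2M, 3 libraries) or 18 months old (18M, 3 libraries), and the tissue was a pool of cortex and hippocampus. Young and old brains were compared to learn whether the small RNAs held by the RISC differ with age.

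A miRNA guide finds its targets mainly through its seed, the bases near its 5′ end that pair with mRNAs. miR-15 and miR-16 are known for holding back the cell cycle and survival genes such as Bcl2 and Ccnd1, and the loss of their human cluster was found in chronic lymphocytic leukaemia. The family is made from paired hairpins that lie close together in the genome, so that a single primary transcript can give more than 1 member. The study reads each R-sRNA by its 6mer seed, read positions 2 to 7, and gives each seed a viability, the percent of cells that survive an siRNA carrying it, so that a low value marks a toxic seed.

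The mature members are shown because they carry the same seed and differ in the bases after it. They are the RefSeq sequences of GRCm38.p6, written 5′ to 3′, and the capitals mark the seed, bases 2 to 8.
miR-16-5p: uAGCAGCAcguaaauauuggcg
miR-195a-5p: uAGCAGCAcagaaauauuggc
miR-15a-5p: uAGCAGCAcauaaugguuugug
miR-15b-5p: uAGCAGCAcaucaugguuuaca
miR-497a-5p: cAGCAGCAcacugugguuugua
All 5 seeds are the same. miR-16-5p and miR-195a-5p are the closest pair, with 19 of 21 compared bases identical, and miR-15a-5p and miR-15b-5p share 18 of 22. miR-16-5p and miR-497a-5p share the fewest, 11 of 22, and miR-497a-5p alone begins with C.

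The hairpins lie in 3 clusters of GRCm38. miR-15a-5p (chr14:61632075-61632096, minus strand) and a copy of miR-16-5p (chr14:61631936-61631957, minus strand) lie in an intron of the noncoding gene Dleu2, with 54 bases between their hairpins. miR-15b-5p (chr3:69009775-69009796, plus strand) and the other copy of miR-16-5p (chr3:69009918-69009939, plus strand) lie in an intron of Smc4, a condensin subunit, with 66 bases between hairpins. miR-497a-5p (chr11:70234730-70234751, plus strand) and miR-195a-5p (chr11:70235062-70235082, plus strand) have 241 bases between hairpins, and GENCODE M21 has no host gene on their strand. The copies of miR-16-5p have the same mature sequence, so their reads could not be divided between the clusters.

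The libraries held 19272046 to 25080484 reads, and 3 reads, the floor used here, were worth 0.120 to 0.156 RPM, the deposited unit of reads scaled to a common library total. Neuronal marker miRNAs (miR-124-3p, miR-9-5p, miR-128-3p and miR-132-3p) summed to 222201 to 238187 RPM at 2M and 196252 to 255544 RPM at 18M. No marker of neurons, oligodendrocytes, immune cells, erythrocytes or vessels was at 0, and none of those tested passed between the ages. miR-155-5p and miR-144-5p had means under 10 RPM and were not tested. miR-132-3p, miR-338-5p, miR-143-3p and miR-145a-5p lay lower at 18M without overlap, which held for 19.2% of all miRNAs tested. The other markers overlapped. In bulk tissue, fewer cells of a type and less RNA per cell cannot be told apart. Nothing in the labels says whether each library came from a separate mouse, so p-values measure the spread between these libraries.

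The family as a whole held a slightly larger share of the reads in the old libraries, a sum that was not tested. It held 1.90%, 1.83% and 1.85% of all reads in 2M replicates 1, 2 and 3, and 1.99%, 1.96% and 2.03% in 18M replicates 1, 2 and 3, so the ages did not overlap. Among the single miRNAs tested, the old libraries lay above the young ones for 5.7%. By level the order was miR-16-5p, miR-15a-5p, miR-195a-5p, miR-497a-5p and miR-15b-5p in the mean, with ranks 17, 51, 103, 116 and 201 among all labels. miR-195a-5p and miR-497a-5p changed places between libraries, and the other neighbours kept their order in each library. miR-16-5p alone held 65.0% to 73.8% of the family's reads. The limma test was run across all 474 miRNAs whose mean reached 10 RPM. It called 23 of them (4.85%) at an adjusted p under 0.05, and 1 of the 5 members was among them. The median log2 fold change was 0.11 over the members and -0.07 over all miRNAs tested.

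miR-16-5p, the most abundant member, stood at 12337, 12497 and 12444 RPM at 2M and at 13180, 14503 and 13995 RPM at 18M. All 3 old libraries lay above all 3 young ones, which held for 5.7% of all miRNAs tested. The means were 12426 ± 81.2 RPM (SD, n = 3) and 13893 ± 668 RPM (SD, n = 3). The log2 fold change on the log2(RPM + 1) scale was 0.16 (SE 0.10) and did not pass the limma test, with an adjusted p of 0.421.

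miR-15a-5p, its partner in the Dleu2 intron, stood at 4281, 3868 and 4096 RPM at 2M and at 4416, 3161 and 4166 RPM at 18M. The ages overlapped, and 18M replicate 2 was the lowest of the 6. The log2 fold change was -0.07 (SE 0.16; limma, adjusted p = 0.835), and without 18M replicate 2 its sign turned, to 0.07. With median-of-ratios scaling it was 0.02.

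miR-15b-5p, the least abundant member, was lower in old brains. It stood at 326, 335 and 373 RPM at 2M and at 245, 223 and 238 RPM at 18M, with no overlap, which held in this direction for 19.2% of all miRNAs tested. The means were 344 ± 25.0 RPM (SD, n = 3) and 236 ± 11.2 RPM (SD, n = 3), a log2 fold change of -0.54 (SE 0.11) with an adjusted p of 0.0478 in limma, and 4.43% of all miRNAs tested were called lower. The call stood at the edge of the threshold: over the 17 alternatives the log2 fold change was -0.58 to -0.45, the adjusted p ran from 0.00688 to 0.194, and 3 alternatives kept it. Leaving out any single library ended it.

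miR-195a-5p stood at 984, 1065 and 958 RPM at 2M and at 1097, 1121 and 1041 RPM at 18M. The ages overlapped, and the log2 fold change was 0.12 (limma, adjusted p = 0.645). miR-497a-5p, from the neighbouring hairpin, stood at 1066, 569 and 663 RPM at 2M and at 904, 636 and 885 RPM at 18M. It had the widest spread of the members, and 2M replicate 1 was its highest library. Its log2 fold change was 0.11 (limma, adjusted p = 0.848) and was -0.08 without 2M replicate 2.

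**Figure D1:**
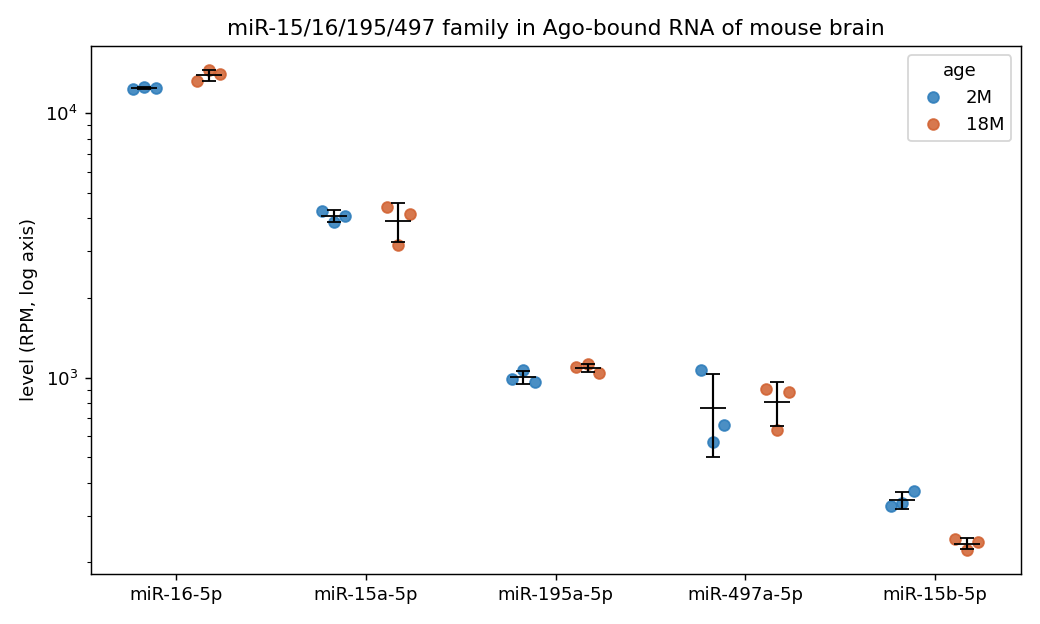
Level of each family member in RPM on a log axis, with 1 point per library, 3 libraries per age, and black bars for the mean and SD (n = 3). The old libraries lie above the young ones for miR-16-5p and below them for miR-15b-5p, and the ages overlap for the other members.

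**Figure D2:**
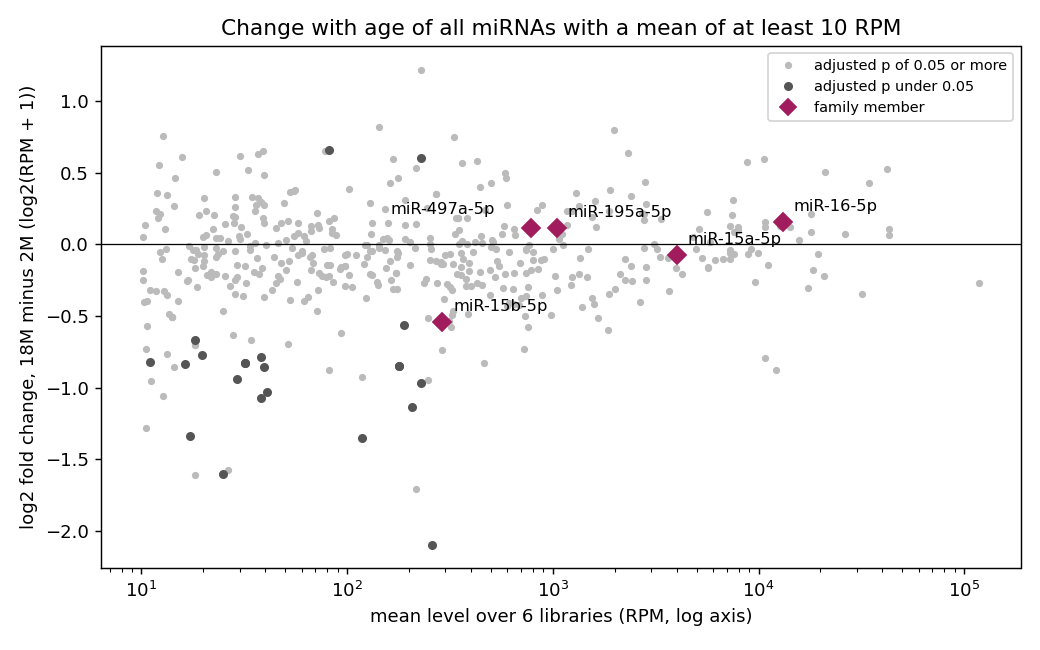
Log2 fold change, 18M minus 2M on the log2(RPM + 1) scale, against the mean level in RPM on a log axis for the 474 miRNAs tested, with an adjusted p under 0.05 in dark grey and the 5 members as diamonds. 4 members lie near 0, and miR-15b-5p is at -0.54.

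Pairs of members were compared as ratios within a library, which do not depend on the total. A read of miR-15b-5p was matched by 13.1, 11.6 and 10.99 reads of miR-15a-5p at 2M and by 18.0, 14.1 and 17.5 at 18M. The ages did not overlap, the log2 ratio differed by 0.47, and the exact two-sided permutation test gave p = 0.1, the smallest p that 3 against 3 libraries allow (0.3 adjusted over 3 ratios). For miR-195a-5p to miR-497a-5p, members of 1 cluster, a library held 0.923 to 1.87 reads of the first per read of the second, and the log2 ratio differed by 0.0045 between the ages (exact permutation test, p = 1). Both chromosome 11 members together against miR-15a-5p and miR-15b-5p together gave overlapping ages (exact permutation test, p = 0.3, adjusted 0.45).

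The passenger strands, cut from the other arm of the same hairpins, were far rarer. miR-497a-3p ranged from 26.7 to 89.1 RPM and was the highest of them, and miR-15a-3p ranged from 14.03 to 29.8 RPM. miR-15a-3p, miR-16-1-3p, miR-16-2-3p and miR-497a-3p were tested, and none passed the limma test. miR-15b-3p had a mean under 10 RPM and was not tested. It stood at 8.43, 10.2 and 10.9 RPM at 2M and at 6.33, 5.07 and 7.996 RPM at 18M, without overlap. Of the miRNAs that were tested, 19.2% lay lower at 18M without overlap. miR-195a-3p, also under 10 RPM in the mean, had overlapping ages.

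The same 6mer seed, AGCAGC, is carried by further miRNAs. miR-322-5p stood at 265, 306 and 279 RPM at 2M and at 156, 96.1 and 141 RPM at 18M. It did not overlap between the ages and was called lower, with a log2 fold change of -1.14 and an adjusted p of 0.0314 in limma. Its neighbour miR-503-5p stood at 19.6, 16.3 and 14.9 RPM at 2M and at 12.4, 3.50 and 9.46 RPM at 18M, with a log2 fold change of -1.06 that did not pass (limma, adjusted p = 0.235). Both are known, like the members, for holding back the cell cycle. Of a list of 17 miRNAs with that role, let-7, miR-34, miR-449 and miR-26 members among them, 1 was called lower, miR-322-5p, and 0 were called higher, 12 had a log2 fold change above 0, and the median was 0.08.

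Together all reads with the AGCAGC seed, whose viability is 37.8%, gave 18461 to 19064 RPM at 2M and 19484 to 20237 RPM at 18M. The ages did not overlap, as for 19.2% of the 1105 seeds tested in either direction, and the log2 fold change of 0.09 (SE 0.09) did not pass (limma, adjusted p = 0.731), while 0.905% of seeds were called. The members gave 97.3% of these reads and miR-16-5p alone 66.5%, and miR-322-5p gave 0.910%.

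Not every read of a member carried this seed. The share with another 6mer seed was 1.71% to 2.70% for the other 4 members and higher for miR-497a-5p, at 5.97%, 6.72% and 7.27% at 2M and at 9.25%, 9.43% and 8.56% at 18M. For miR-497a-5p the old libraries lay above the young ones, the change in log2 odds was 0.48, and it did not pass the limma test (adjusted p = 0.244). None of the 474 miRNAs passed there (0%), and 8.65% had an unadjusted p under 0.05. For 15.8% of them the ages did not overlap. Reads that began 1 base late carried GCAGCA, the seed of miR-103-3p and miR-107-3p, at a viability of 42.4%. The members gave 1.69% of the GCAGCA reads, and miR-103-3p gave 67.7% and miR-107-3p 29.1%. Reads of the members that began 1 base early carried UAGCAG, at a viability of 50.7%, and such reads were 0.450% to 1.02% of miR-15a-5p, miR-15b-5p, miR-16-5p and miR-195a-5p.

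The most frequent other seed in miR-497a-5p reads was GGCAGC, with a viability of 9.7%, at 3.10% to 6.05% of its reads. GCAGCA came next, at 2.17% to 3.15%. GGCAGC came from a G in place of the A at base 2, written A2G. Positions are counted from 1 at the 5′ end of the mature miRNA, with the mature base first and the read base last. The main miR-497a-5p read and its A2G form are shown because the single capital is the only base by which they differ and lies in the seed.
miR-497a-5p, main read: cagcagcacactgtggtttgt
miR-497a-5p, A2G read: cGgcagcacactgtggtttgt
The base lies at position 70234731 of chromosome 11 (GRCm38, plus strand). The A2G read of 21 bases matched none (0) of the 141767 transcripts of GENCODE M21 exactly on either strand, and the main read matched 2. An A deaminated to inosine in RNA is read as G by sequencing, and whether these reads came from such editing was not tested.

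A2G reads were more frequent in old brains. They were 3.20%, 3.42% and 3.85% of the miR-497a-5p reads with at most this substitution in bases 1 to 18 at 2M, and 6.26%, 5.89% and 4.76% at 18M. All 3 old libraries lay above all 3 young ones, and the lowest old library, at 4.76% (884 of 18563 reads, Wilson 95% interval 4.47% to 5.08%), lay above the interval of the highest young one, 3.85% (516 of 13403 reads, 3.54% to 4.19%). The means were 3.49% ± 0.332 (SD, n = 3) and 5.64% ± 0.779 (SD, n = 3). A limma fit was made over all 91 substitution sites whose reads reached a mean of 10 RPM. The log2 odds rose by 0.69 (SE 0.10) with an adjusted p of 0.00283. It was the only site called (1.1%), and for 7.69% of the sites the old libraries lay above the young ones. The fit over substitution sites was added, and this site was singled out, after the values had been seen. The call held in all 7 alternatives that tested the site, with a change of 0.61 to 0.82 and an adjusted p of at most 0.0423. A minimum of 100 RPM left the site untested.

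The A2G share of miR-497a-5p was the 4th highest of the 91 sites, whose median share was 0.0969%. All 91 sites lay in bases 1 to 4, so substitutions at later bases are not covered by these counts. The same substitution was rare in the other members, although their seeds are the same. It was 0.0849% to 0.1004% of miR-16-5p reads, with overlapping ages (limma, adjusted p = 0.828), and 0.0393% to 0.137% of miR-15b-5p reads, also with overlap. For miR-15a-5p it was 0.0524% to 0.0765% at 2M and 0.0844% to 0.0908% at 18M, and for miR-195a-5p 0.0993% to 0.153% at 2M and 0.169% to 0.179% at 18M. In both the old libraries lay above the young ones, as in miR-497a-5p, at far lower shares. Unlike in miR-497a-5p, the Wilson interval of the highest young library overlapped that of the lowest old one. For miR-15a-5p these were 0.0609% to 0.0962% (2M replicate 2, 73 reads) and 0.0657% to 0.108% (18M replicate 2, 61 reads). For miR-195a-5p they were 0.112% to 0.208% (2M replicate 2, 40 reads) and 0.122% to 0.235% (18M replicate 1, 35 reads). The order of these libraries was within counting error. These sites of miR-15a-5p, miR-15b-5p and miR-195a-5p were below 10 RPM and not tested, and neither was any difference between members. Of all 29 A-to-G sites tested, 4 had the old libraries above the young ones and 3 had them below. Those above included 3 of the 6 sites with a share over 1%: miR-497a-5p, miR-540-5p at base 3 and miR-154-5p at base 2, and the last 2 did not pass (limma, adjusted p = 0.314 and 0.167). The limit of 1% was not set in advance. The next A-to-G sites below it, miR-335-5p at base 4 (0.991%) and miR-100-5p at base 1 (0.855%), had overlapping ages.

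The A2G read itself was the third most abundant read of miR-497a-5p. It stood at 27.4, 14.4 and 19.5 RPM at 2M and at 46.8, 29.2 and 34.5 RPM at 18M, without overlap, and its log2 fold change of 0.84 (SE 0.27) did not pass among all read sequences (limma, adjusted p = 0.276). The main read stood at 772, 392 and 471 RPM at 2M and at 671, 445 and 634 RPM at 18M, with overlap. Summed over all miRNAs, GGCAGC reads gave 52.8, 37.9 and 41.8 RPM at 2M and 76.2, 57.7 and 60.8 RPM at 18M. miR-497a-5p gave 63.4% of them and the 5 members together 93.0%. The seed's log2 fold change was 0.55 and did not pass (limma, adjusted p = 0.294).

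**Figure D3:**
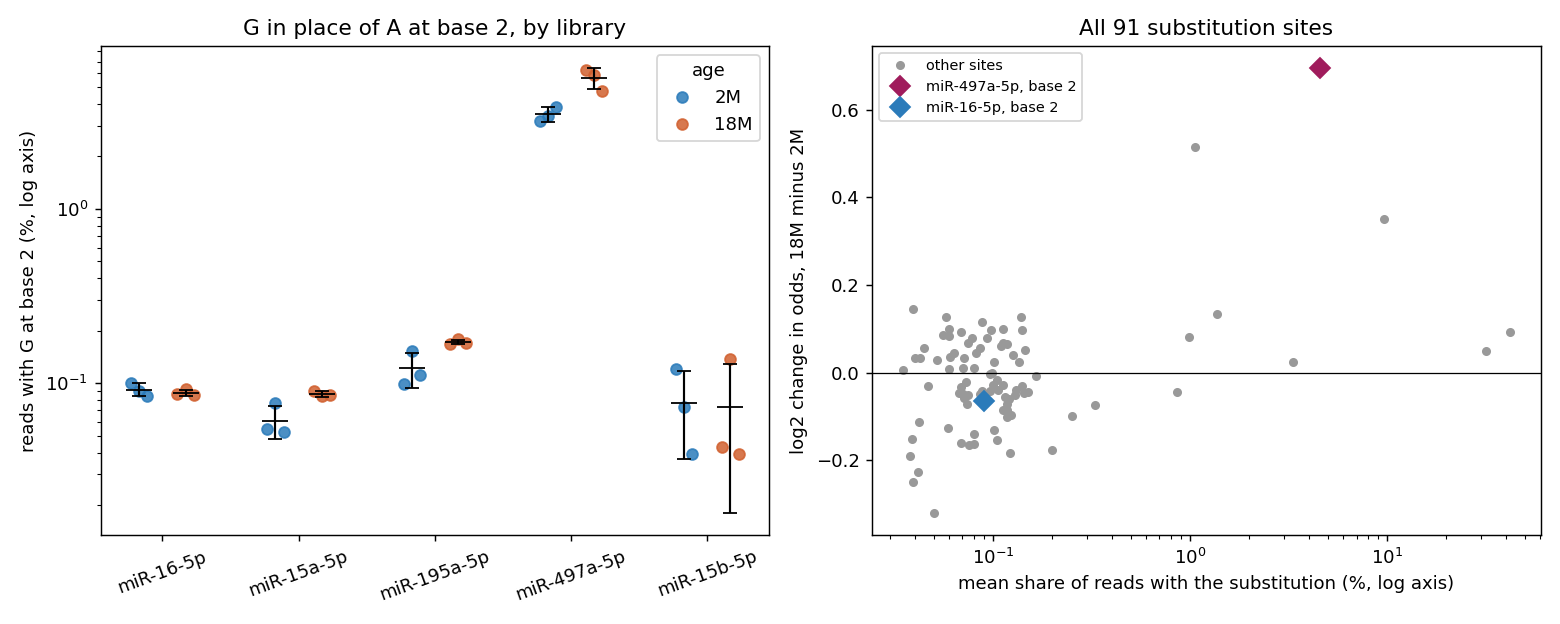
Left, share of reads with G at base 2 in each member, in percent on a log axis, with 1 point per library and black bars for the mean and SD (n = 3). Right, change in log2 odds, 18M minus 2M, against the mean share in percent on a log axis for the 91 substitution sites, where miR-497a-5p lies highest at 0.69.

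The members differed in where their reads end. The shares of 3′ end types below are of each member's own reads. miR-16-5p reads mostly ended at the reference end, 56.9% to 62.1% of them. miR-195a-5p reads ran past it along the hairpin in 42.4% to 46.7%, and miR-497a-5p reads stopped short of it in 71.4% to 76.4%. miR-15b-5p was divided between shorter reads (42.7% to 52.8%) and the reference end (40.5% to 51.2%). miR-15a-5p stood apart by its tails, bases at the 3′ end that the hairpin does not encode: A or U tails made up 25.5% to 35.9% of its reads.

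**Figure D4:**
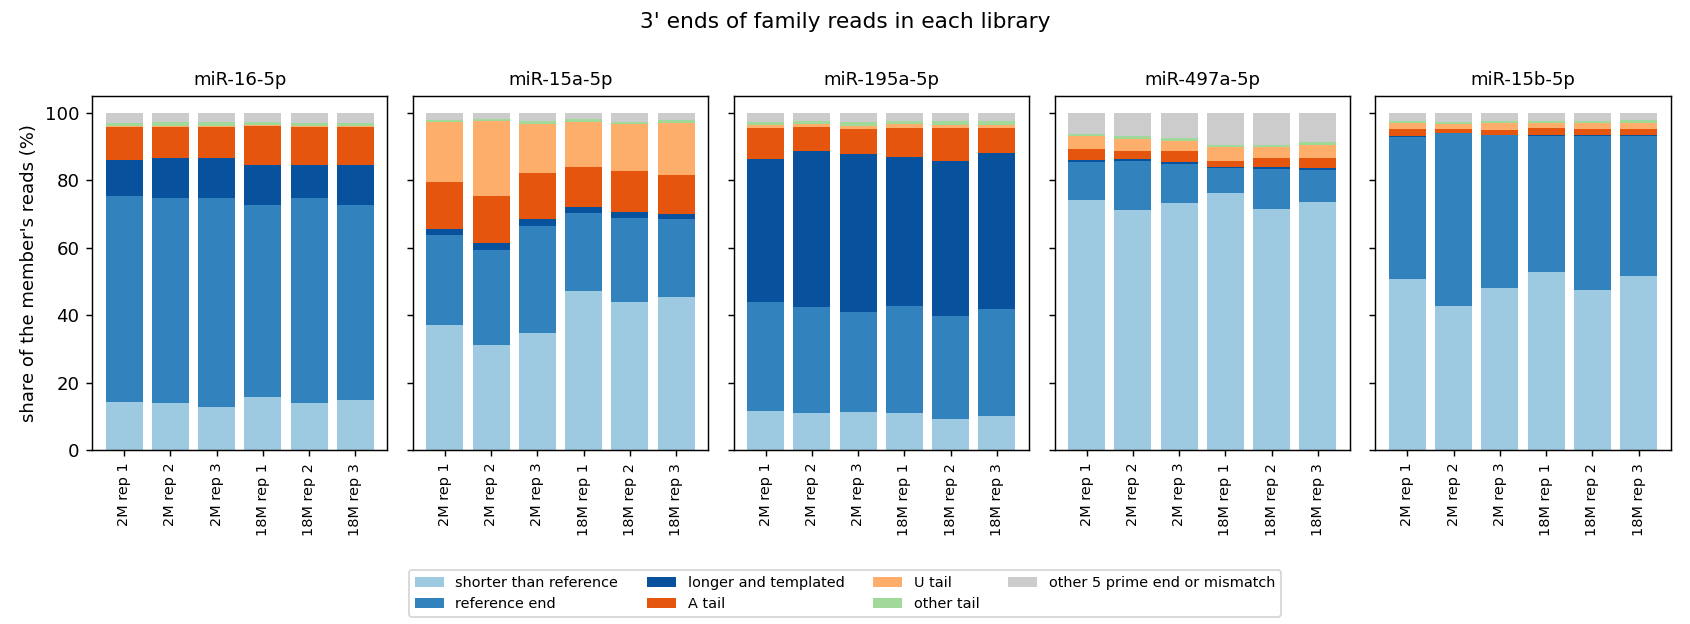
Share of each member's reads, in percent, by type of 3′ end, with 1 stacked bar per library; tails are 1 to 3 last bases that do not match the hairpin. The shorter reads of miR-15a-5p make up 31.2% to 37.2% at 2M and 43.8% to 47.1% at 18M, and tails take the most room in miR-15a-5p.

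The mean length of miR-15a-5p reads was lower in each old library than in each young one, which did not pass the test. Reads of 21 nt were 36.4%, 30.1% and 34.1% at 2M and 45.8%, 43.0% and 44.7% at 18M, while those of 22 nt were 27.8% to 33.0% at 2M and 24.6% to 26.7% at 18M. Reads of 23 nt were 29.9% to 37.2% at 2M and 26.3% to 27.8% at 18M. The ages did not overlap for any of these lengths, whose shares are parts of the same total and do not move independently. The main reads with a U or A tail, 15.8% and 12.1% of miR-15a-5p, were 23 nt long. The tailed share given below is therefore not independent of these lengths. The mean length was 21.95, 22.05 and 21.95 nt at 2M and 21.76, 21.81 and 21.81 nt at 18M. In the fit over all miRNAs the change of -0.19 nt (SE 0.04) had an unadjusted p of 0.0015 and did not pass after adjustment (limma, adjusted p = 0.130). There 0.633% of the miRNAs were called, 13.7% had an unadjusted p under 0.05, and for 12.2% the old libraries lay below the young ones. The mean lengths of the other members overlapped between the ages.

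The 3 main miR-15a-5p reads are shown because their balance carries this shift, and the capital marks a base the hairpin does not encode.
miR-15a-5p, 21 nt: tagcagcacataatggtttgt
miR-15a-5p, 22 nt: tagcagcacataatggtttgtg
miR-15a-5p, 23 nt: tagcagcacataatggtttgtgT
The 21 nt read stood at 1532, 1145 and 1376 RPM at 2M and at 1990, 1335 and 1830 RPM at 18M, with overlap. The 22 nt read stood at 1136, 1093 and 1296 RPM at 2M and at 1025, 792 and 967 RPM at 18M, without overlap. The 23 nt read with its U tail stood at 743, 828 and 582 RPM at 2M and at 577, 431 and 628 RPM at 18M. None of the 3 passed among all read sequences (limma, adjusted p of 0.414 to 0.487).

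The tailed shares of miR-15a-5p and miR-16-5p lay on opposite sides between the ages, and the difference between the members was not tested. Here a tailed share is taken of tailed plus untailed reads. For miR-15a-5p it was 33.0%, 37.2% and 29.7% at 2M and 26.7%, 27.3% and 28.2% at 18M, without overlap and lower in old brains. For miR-16-5p it was 11.5%, 10.9% and 10.9% at 2M and 13.3%, 12.96% and 13.1% at 18M, without overlap and higher. Neither passed over the 446 miRNAs tested: the change in log2 odds was -0.40 (limma, adjusted p = 0.283) for miR-15a-5p and 0.27 (limma, adjusted p = 0.209) for miR-16-5p. No miRNA was called (0%), 13.9% had an unadjusted p under 0.05, and for 20.2% the ages did not overlap.

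By base, A tails made up most miR-16-5p tails, and both A and U tails occurred on miR-15a-5p. A tails of miR-16-5p were 10.3%, 9.73% and 9.75% at 2M and 12.1%, 11.8% and 11.8% at 18M, a change of 0.29 in log2 odds (limma, adjusted p = 0.293). Over all miRNAs the median change in A tails was 0.14, and for 20.6% the old libraries lay above the young ones. A tails of miR-15a-5p were 17.6%, 18.4% and 16.5% at 2M and 14.3%, 14.5% and 13.95% at 18M, a change of -0.35 (limma, adjusted p = 0.293). Its U tails were 21.3%, 26.3% and 17.6% at 2M and 15.8%, 16.6% and 18.1% at 18M, with overlap.

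At the level of single read sequences, 47 reads of the members had a mean of at least 10 RPM, and 1 was called, against 0.366% of all 3281 read sequences tested. An unadjusted p under 0.05 was found for 11 of the 47, and for 13% of all. Tailed reads of miR-16-5p did not all lie high: their log2 fold change ran from -0.34 for a tail C to 1.03 for a tail AT. The A2G read of miR-497a-5p, at 0.84, lay above most of them. The called read is shown with the A and AA tails at the same place and the main read for comparison, and capitals mark the tail.
miR-16-5p, main read: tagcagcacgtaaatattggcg
miR-16-5p, tail A: tagcagcacgtaaatattggcA
miR-16-5p, tail AA: tagcagcacgtaaatattggcAA
miR-16-5p, tail AT: tagcagcacgtaaatattggcAT
The called read was that with the tail AT. The untailed 23 nt read of miR-16-5p ends in ggcgt, so the called read differs from it only by an A in place of the last G. A tail and such a substitution cannot be told apart here. The called read stood at 26.2, 24.6 and 25.7 RPM at 2M and at 48.5, 57.2 and 54.3 RPM at 18M, without overlap. Its log2 fold change was 1.03 (SE 0.14) with an adjusted p of 0.0391 in limma, and 3 of 12 alternatives kept the call, with adjusted p-values up to 0.281. The same bases, ggcat, end a read of miR-195a-5p, whose hairpin encodes them. That read stood at 43.2, 42.0 and 44.4 RPM at 2M and at 54.6, 63.2 and 51.5 RPM at 18M, also without overlap (limma, adjusted p = 0.339).

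The reads of miR-16-5p with A tails pointed the same way without passing. For 21% of all read sequences the ages did not overlap. The read with tail A stood at 341, 364 and 318 RPM at 2M and at 460, 498 and 492 RPM at 18M (log2 fold change 0.50; limma, adjusted p = 0.234). The read with tail AA stood at 64.9, 49.2 and 52.2 RPM at 2M and at 89.9, 107 and 93.3 RPM at 18M (log2 fold change 0.80; limma, adjusted p = 0.141). All 5 A-tailed miR-16-5p reads of at least 10 RPM had the old libraries above the young ones. The untailed reads of 21 and 20 nt did as well, with log2 fold changes of 0.32 and 0.21 (limma, adjusted p = 0.378 and 0.526). The untailed 23 nt read had overlapping ages. The main read stood at 7548, 7602 and 7722 RPM at 2M and at 7506, 8809 and 8109 RPM at 18M, with overlap.

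All 4 miR-15b-5p reads of at least 10 RPM had a negative log2 fold change, and 3 had an unadjusted p under 0.05. The highest is shown with the next, which ends 1 base earlier.
miR-15b-5p, 22 nt: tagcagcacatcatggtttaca
miR-15b-5p, 21 nt: tagcagcacatcatggtttac
The 22 nt read stood at 138, 171 and 169 RPM at 2M and at 99.4, 102 and 98.7 RPM at 18M, and the 21 nt read at 111, 101 and 119 RPM at 2M and at 84.6, 73.3 and 81.3 RPM at 18M. Neither overlapped between the ages, and neither passed (limma, adjusted p = 0.175 and 0.276). The 3 most abundant reads of miR-195a-5p had log2 fold changes of -0.04 to 0.12 and overlapping ages.

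**Figure D5:**
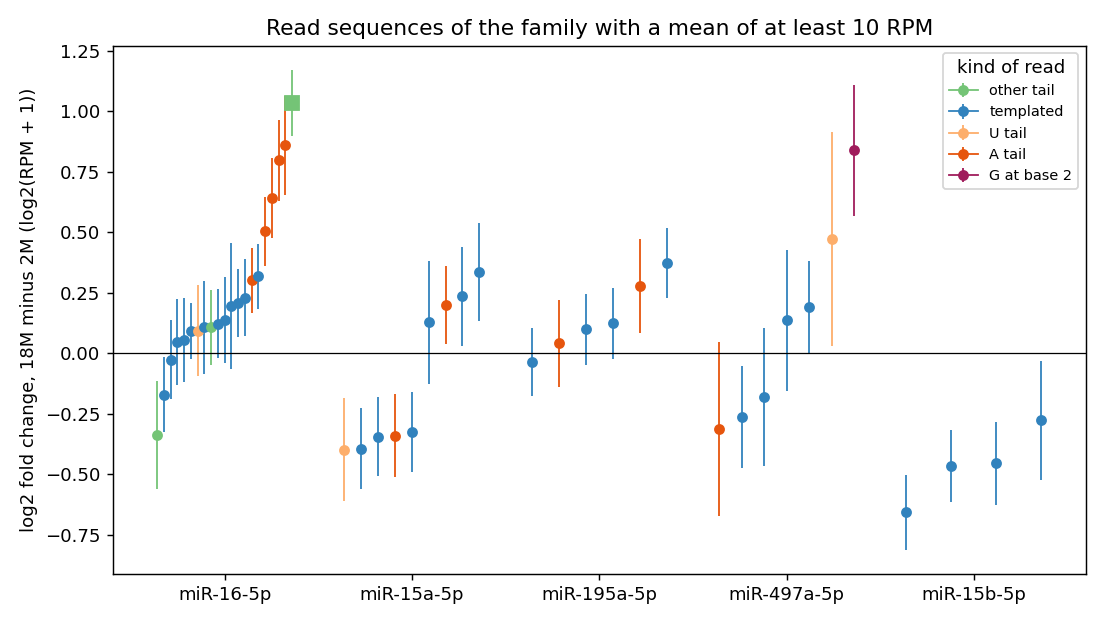
Log2 fold change, 18M minus 2M on the log2(RPM + 1) scale, of the 47 member reads with a mean of at least 10 RPM, ordered by value within each member, with bars for the SE and colours for the kind of read. The square marks the called miR-16-5p read at 1.03, and all 4 miR-15b-5p reads lie below 0.

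Members were also set beside other miRNAs by how they varied over the 6 libraries. Likeness was the root mean square difference of log2(RPM + 1), each centred on its mean, over 275 miRNAs with a mean of at least 100 RPM, where a smaller value is closer. It has to be read against the distance of a member from a flat profile, which is 0.0897 for miR-16-5p, 0.0805 for miR-195a-5p, 0.159 for miR-15a-5p, 0.281 for miR-15b-5p and 0.323 for miR-497a-5p. miR-16-5p and miR-195a-5p varied little and were nearest to each other, at 0.0674. miR-434-3p and let-7b-5p came next for miR-16-5p (0.0819 and 0.0821), and miR-667-3p and miR-434-3p for miR-195a-5p (0.0744 and 0.0784), values not far from those of a flat profile. miR-15a-5p was closest to miR-103-3p (0.0532), then miR-27a-3p and miR-301a-3p, and its difference from miR-16-5p was 0.224. miR-15b-5p was closest to miR-376c-3p (0.0804), then miR-150-5p and miR-425-5p. miR-497a-5p was closest to miR-140-3p (0.159), then miR-301a-3p and miR-103-3p, and its difference from its cluster neighbour miR-195a-5p was 0.351, above that from a flat profile. These values are descriptions over 6 libraries that share their scaling.

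The erythrocyte list of 4 (miR-451a, miR-144-3p, miR-144-5p and miR-486a-5p) summed to 2550 to 3689 RPM at 2M and 1307 to 2892 RPM at 18M. The 3 tested of this list had a log2 fold change below 0, with a median of -0.60, and none passed the limma test. The vessel list of 4 summed to 11390 to 17001 RPM at 2M and 10104 to 13607 RPM at 18M, with a median of -0.29. Their part in the level of miR-15b-5p was not tested.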

How the data were processed

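Short RNAs bound to Ago1-4 were sequenced from 6 libraries of BL6 (C57BL/6J) mouse cortex and hippocampus, grouped by age from the sample titles. The deposited table gives RPM, reads scaled to a common library total, for each of 143934 read sequences, which the authors made by trimming (Trim Galore, version not given in the sources used here), collapsing identical reads and annotating them. The build used for annotation is not given in the sources used here. The seed viability is a deposited score, the percent of surviving cells that the authors give for each 6mer. None (0) of the per-sample columns was left unused.

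Rows were added up per miRNA label, split where a row named several, and no member row did. All values (100%) were whole multiples of 1 read within 0.05 of a step, so reads were recovered. Every pair of libraries differed well beyond sampling noise (lowest chi-square per degree of freedom 16.0), so none was a duplicate. Reads carry no molecular identifiers, so the intervals and the floor describe counting error alone.

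limma 3.58.1 (R 4.3.3; lmFit, eBayes with trend) tested log2(RPM + 1) of miRNAs, read sequences and 6mer seeds whose mean reached 10 RPM, two-sided, with Benjamini-Hochberg adjustment over all features and a threshold of 0.05. Fold changes on this scale understate those of low features. The same fit was applied to mean read length and to log2 odds of off-seed reads, tails and single substitutions in bases 1 to 18, after adding 1 RPM to each part. Tails were the last 1 to 3 bases that did not match a hairpin of RefSeq or GENCODE M21. Hairpins were found for 761 labels and mature sequences for 924 labels, all 5 members among them. In simulated reads all 152 changed sequences of the 3285 tested were called in the right direction and 9 unchanged ones were called. In simulated tails 49 of 50 miRNAs shifted 2-fold in odds, of 446, were called, with 4 unshifted. Whether changes as small as those of the members would be called was not tested.

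Named items were the members, their passenger strands, other miRNAs of the same seed, the 3 highest reads of each member and any called read, the 3 main other seeds, and the 3 nearest miRNAs of each member. The members and lists were chosen with earlier results of these data known. The A tail, U tail and substitution fits and the count tests of read sequences were added after seeing the data. So were the A-tailed and 20 nt miR-16-5p reads, the miR-195a-5p read and the sites of miR-154-5p, miR-540-5p, miR-335-5p and miR-100-5p. Alternatives were pseudocounts of 0.1 and 5, minimum means of 1 and 100 RPM or none, median-of-ratios scaling, a replicate block, limma without trend, edgeR 4.0.16 and DESeq2 1.42.0 on the recovered reads, single-label rows, and leaving out each library. Tables were handled with pandas 2.3.3 in Python 3.11.15, with scipy 1.17.1 for exact tests and matplotlib 3.10.9 for plots.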

Additional observations from a re-analysis of the deposited data

Results flagged for a closer look

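Reads with the AGCAGC seed but no miRNA label lay outside every comparison of the members. There were 668 such sequences, which together had a mean of 284 RPM over the 6 libraries, 1.47% of the reads with this seed. The floor of 0.120 to 0.156 RPM applies to each sequence and not to this sum. Together the sequences gave 280, 272 and 268 RPM at 2M and 297, 281 and 303 RPM at 18M, without overlap. Among the seeds tested, the ages did not overlap for 19.2%, in either direction. Of these sequences, 532 were named for a hairpin of the family in the second annotation of the table, and they held 1.37% of the reads with this seed. The difference between the ages was not tested for them.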

How the results depend on the processing

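With 3 libraries per age, calls near the threshold depended on single libraries. miRNA calls numbered 23, and 3 with no filter, 2 at 100 RPM, 14 with median-of-ratios scaling, 15 without trend, 14 with edgeR, 46 with DESeq2, 15 from single-label rows and 0 to 15 over the left-out libraries (0 on dropping 2M replicate 2 or 3). Read calls numbered 12, and 20 at 1 RPM, 0 at 100 RPM, 151 with DESeq2 and 0 to 0 over the left-out libraries. Seed calls numbered 10, and 5 at 1 RPM, 4 at 100 RPM, 18 with median-of-ratios scaling and 0 to 38 over the left-out libraries (38 on dropping 18M replicate 2). Length calls numbered 3, and 0 to 3 over the left-out libraries. Tail calls numbered 0, and 0 to 2 (2 on dropping 2M replicate 3). Substitution calls numbered 1, and 0 at 100 RPM, where 2 sites were tested, and 1 to 2 over the left-out libraries (2 on dropping 18M replicate 1 or 3).

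The replicate number as a block gave 1 miRNA call, 0 read calls, 0 seed calls and 1 length call. The numbers did not pair the libraries: deviations of same-numbered libraries correlated at -0.169, -0.221 and -0.100 over 474 miRNAs.

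The level of miR-15a-5p turned to 0.0218 with median-of-ratios scaling, 0.0160 with edgeR and 0.0296 with DESeq2, and ran from -0.169 to 0.0726 over the left-out libraries. Other values that turned when 1 library was dropped were the level of miR-497a-5p (-0.0750 to 0.377), its main read (-0.0708 to 0.418), off-seed reads of miR-15a-5p (-0.0707 to 0.217) and miR-15b-5p (-0.0621 to 0.0187), and the log2 ratio of miR-195a-5p to miR-497a-5p (-0.273 to 0.236, with -0.273 on dropping 2M replicate 1 and -0.183 on dropping 18M replicate 2). The cause was not tested.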

Other observations

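Guide strands outnumbered passenger strands in every library and for every hairpin pair examined. A read of miR-497a-3p was matched by 7.42 to 23.8 reads of miR-497a-5p, and a read of miR-15b-3p by 29.8 to 44.0 reads of miR-15b-5p. For miR-15a-5p the number was 137 to 276, and for miR-16-5p against both of its passenger strands together 354 to 844. Reads of miR-195a-5p per read of miR-195a-3p were 86.8, 116 and 114 at 2M and 154, 184 and 117 at 18M, without overlap between the ages, and this ratio was not tested.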
